A study of Mus musculus with 6 samples.

Results

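The transcripts of 10 genes that make or sense prostaglandins were followed in mouse primary visual cortex (V1). They were the cyclooxygenases Ptgs1 and Ptgs2, the terminal synthases Ptges, Ptges2, Ptges3 and Ptgds, and the prostaglandin E2 (PGE2) receptor genes Ptger1, Ptger2, Ptger3 and Ptger4. The 10 genes were selected by symbol among the 52636 rows of a gene count table, and all 10 were found. The set was picked from results of these same libraries, with the lower Ptgs2 counts in contralateral V1 already known, so the differences of the 10 genes between hemispheres are given as descriptions, with no p-value. Where the text counts members past a threshold, the share of all genes past it stands beside the count, and nothing is read from the count. Of the 10, 9 had enough reads to enter the fit over 20473 genes, and Ptger2 did not.

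The animals were 3 C57BL/6J mice, wild type and taken at postnatal day 28, whose right eyelids had been sewn shut for 3 days (monocular deprivation). Each mouse gave left V1, on the side opposite to the closed eye (contralateral), and right V1, on the same side (ipsilateral), for a total of 3 contralateral and 3 ipsilateral libraries of total RNA numbered by mouse. Both hemispheres belong to deprived animals, and V1 of animals without a sutured eye was not analysed here. The study deals with circular RNA from Homer1 and with experience-dependent plasticity in this area, and the comparison between hemispheres asks how the transcripts differ between the cortex that mainly serves the closed eye and its opposite.

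Cyclooxygenases turn arachidonic acid, which lipases release from membrane lipids, into prostaglandin H2, and terminal synthases convert that intermediate to individual prostaglandins such as PGE2 and prostaglandin D2. In the cortex, Ptgs2 is known as an immediate early gene of excitatory neurons whose transcript rises with synaptic activity, whereas Ptgs1 is the more constant form, found largely in microglia. PGE2 acts through the G protein-coupled receptors EP1 to EP4, products of Ptger1 to Ptger4, and Ptgds, one of the more abundant transcripts of the brain, is known from leptomeninges, choroid plexus and oligodendrocytes.

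Libraries held 17849253 to 32213500 reads assigned to genes, and levels are given as CPM, counts scaled to library size with TMM factors, or as RPKM, which also divides by exon length, where genes are compared with each other. Replicates are separate mice. Correlations of log2 CPM between libraries lay between 0.976 and 0.988. The libraries stood apart in the mitochondrial ribosomal transcript mt-Rnr1, which had 28.8, 2243 and 5801 CPM in contralateral libraries 1 to 3 and 35.9, 5034 and 14.5 CPM in ipsilateral libraries 1 to 3. Each tested member was therefore also compared within the 3 libraries under 1000 CPM of mt-Rnr1 and within the 3 libraries above it. The low class held both libraries of mouse 1 and ipsilateral V1 of mouse 3. The high class held both libraries of mouse 2 and contralateral V1 of mouse 3. Differences between the classes and differences between mice cannot be told apart here. Markers of excitatory cortical neurons were high in every library, with summed levels of 6034 to 6652 CPM in contralateral and 5037 to 6784 CPM in ipsilateral V1.

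Upstream sequences of the 2 cyclooxygenase genes are shown because the hemispheres differed in one and not visibly in the other. They come from RefSeq promoter windows of build GRCm38.p6, which held 9 of the 10 members. Each run below covers the 250 bases before the annotated start, 5′ to 3′ on the plus strand. Capitals mark TTGCGCAA, a palindrome of the type bound by C/EBP factors. Ptgs2 lies at chr1:150099781-150100030 and Ptgs1 at chr2:36230176-36230425.
Ptgs2: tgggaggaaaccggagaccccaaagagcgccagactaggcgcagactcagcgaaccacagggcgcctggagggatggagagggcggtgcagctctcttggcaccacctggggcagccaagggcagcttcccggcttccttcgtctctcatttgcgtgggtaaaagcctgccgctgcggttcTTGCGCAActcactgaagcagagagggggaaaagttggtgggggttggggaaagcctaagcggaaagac
Ptgs1: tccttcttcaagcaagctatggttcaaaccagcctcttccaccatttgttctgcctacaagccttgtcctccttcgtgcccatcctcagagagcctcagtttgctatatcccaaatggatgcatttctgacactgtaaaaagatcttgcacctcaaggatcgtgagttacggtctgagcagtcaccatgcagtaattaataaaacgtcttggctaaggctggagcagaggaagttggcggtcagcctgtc
A further 30 bases, at chr1:150100033-150100062 and 3 to 32 bases from the annotated Ptgs2 start, are printed with capitals over the core of a cAMP response element (TGACG, here read on the minus strand) and an overlapping E-box (CACGTG).
Ptgs2 site: agtcaccactaCGTCACGTGgagtccgctt

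Both elements are known from work on the Ptgs2 promoter. The TTGCGCAA palindrome, 69 to 62 bases before the Ptgs2 start, was in 0.183% of 32851 mouse promoter windows of 300 bases searched on both strands, and in no other member. The CRE core, at bases 14 to 18 after the start, was in 20.8% of the windows, and among members also in Ptges3. CACGTG, at bases 17 to 22 and so sharing bases with the CRE core, was in 7.15% of windows and also in Ptges2. The full palindrome TGACGTCA, in 1.79% of windows, was in none of the 9 member windows. TATAAA, searched on the strand of the gene, was likewise in no member window, against 8.32% of all windows. TGANTCA, the AP-1 motif, was in 7.81% of windows and among members in that of Ptgds, 35 to 29 bases before its start. The Ptgs2 stretch has 61.6% G and C with 13 CpG, and the Ptgs1 stretch 48.0% with 5 CpG, beside a median of 52.4% G and C over all windows. Such matches describe letters and not binding. Positions count from the annotated RefSeq start, and where transcription begins in these samples was not examined.

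Ptgs2, the inducible cyclooxygenase, had the largest fitted difference between hemispheres among the tested members, a difference already known when the set was picked. The gene (ENSMUSG00000032487) occupies chr1:150100031-150108227 on the plus strand of GRCm38, with 4580 exon bases, and overlaps no other annotated gene. It had 7.47, 8.73 and 9.46 CPM in contralateral V1 of mice 1 to 3, against 31.7, 18.95 and 26.2 CPM in ipsilateral V1. All 3 contralateral libraries lay below all 3 ipsilateral ones, and the contralateral values were close together while the ipsilateral ones were spread. In reads, 518 in contralateral V1 stood against 1859 in ipsilateral V1. The mean level was 8.55 ± 1.01 CPM in contralateral and 25.6 ± 6.40 CPM in ipsilateral V1 (SD, n = 3 each), a ratio of ipsilateral to contralateral means of 3.00. The fitted log2 fold change, contralateral over ipsilateral, was -1.58 with a standard error (SE) of 0.20. Within mice, the log2 difference was -2.07, -1.11 and -1.46 in mice 1, 2 and 3, so contralateral V1 was lower in each animal.

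**Figure D1:**
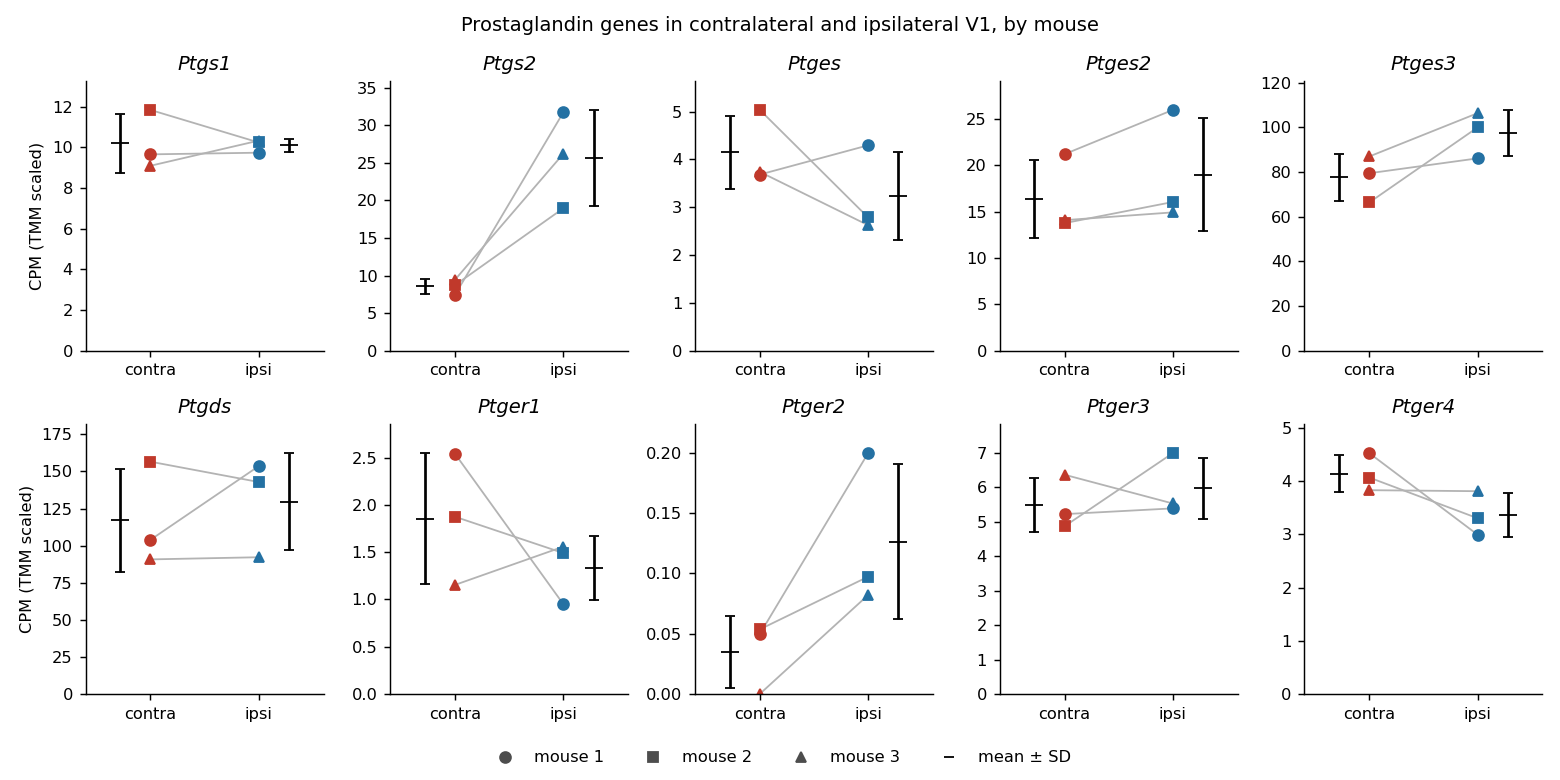
Each panel plots CPM (TMM scaled, linear axis from 0) of 1 member in contralateral (contra, red) and ipsilateral (ipsi, blue) V1, with symbols for the 3 mice, grey lines joining the hemispheres of a mouse, and black bars for mean ± SD of 3 libraries. Ptgs2 is at 7.47 to 9.46 CPM in contralateral and 18.95 to 31.7 CPM in ipsilateral V1, and in the other panels the hemispheres overlap or nearly touch, apart from Ptger2, which rests on 0 to 4 reads a library.

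In these bulk samples, less RNA per cell and fewer cells that make it cannot be told apart. Summed GABAergic interneuron markers (6 of 6 tested) were also lower in contralateral V1, at 279 to 337 CPM against 413 to 490 CPM in ipsilateral V1, with a median log2 fold change of -0.50. Not every marker followed the sum, since Slc32a1 and Sst overlapped between hemispheres. Sst was lower in contralateral V1 of mice 1 and 2 but higher in that of mouse 3 (21.7 against 16.7 CPM). Of the 6 markers, 0 passed the threshold of 0.05 in edgeR's quasi-likelihood test with Benjamini-Hochberg adjustment. With the mouse as a block, 3 passed. The 8 excitatory neuron markers had a median log2 fold change of -0.05, and 0 of them passed in either fit. The part of cell composition in the Ptgs2 difference was not tested. Within the libraries low in mt-Rnr1 the Ptgs2 log2 fold change was -1.96, and within those high in it -1.06. The low class holds both libraries of mouse 1 and the high class both of mouse 2. The differences within these mice were -2.07 and -1.11, so mt-Rnr1 class and mouse cannot be told apart. Ptgs2 was the 1 of 9 tested members that passed the adjusted threshold, a rule that 0.127% of all 20473 genes met, and it passed with the mouse as a block, which 0.894% met. Without contralateral replicate 2, 0 genes met the rule (833 had an unadjusted p under 0.05 in edgeR), Ptgs2 among those lost, at a log2 fold change of -1.59. Because the set was picked with this contrast known, nothing is read from these counts.

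Ptgs1, the constitutive cyclooxygenase (chr2:36230426-36252272, plus strand), had 9.66, 11.8 and 9.09 CPM in contralateral V1 of mice 1 to 3, against 9.74, 10.2 and 10.3 CPM in ipsilateral V1. The contralateral range enclosed the ipsilateral one. Its means were 10.2 ± 1.45 CPM in contralateral and 10.1 ± 0.320 CPM in ipsilateral V1 (SD, n = 3 each), and its log2 fold change was 0.01 (SE 0.17). Summed levels of 8 microglial markers likewise overlapped, at 308 to 411 CPM in contralateral and 278 to 364 CPM in ipsilateral V1. Ptgs1 overlaps a gene on the other strand, Gm43621, and the strand setting of the counting is unknown here.

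Per length, the balance of the cyclooxygenase transcripts differed between the hemispheres. Ptgs2 made up 39.6%, 38.5% and 46.9% of the summed Ptgs1 and Ptgs2 RPKM in contralateral V1 of mice 1 to 3, against 73.4%, 61.1% and 68.3% in ipsilateral V1. The shares averaged 41.7% ± 4.56 in contralateral and 67.6% ± 6.19 in ipsilateral V1 (SD, n = 3 each). The ratio of Ptgs2 to Ptgs1 in RPKM was 0.656, 0.626 and 0.883 in contralateral V1 and 2.76, 1.57 and 2.15 in ipsilateral V1. Per length, Ptgs1 was thus the more abundant cyclooxygenase transcript in all 3 contralateral libraries, and Ptgs2 in all 3 ipsilateral ones. In contralateral V1 of mouse 3, Ptgs2 was above Ptgs1 in CPM (9.46 against 9.09), so the order there rests on the division by exon length.

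**Figure D2:**
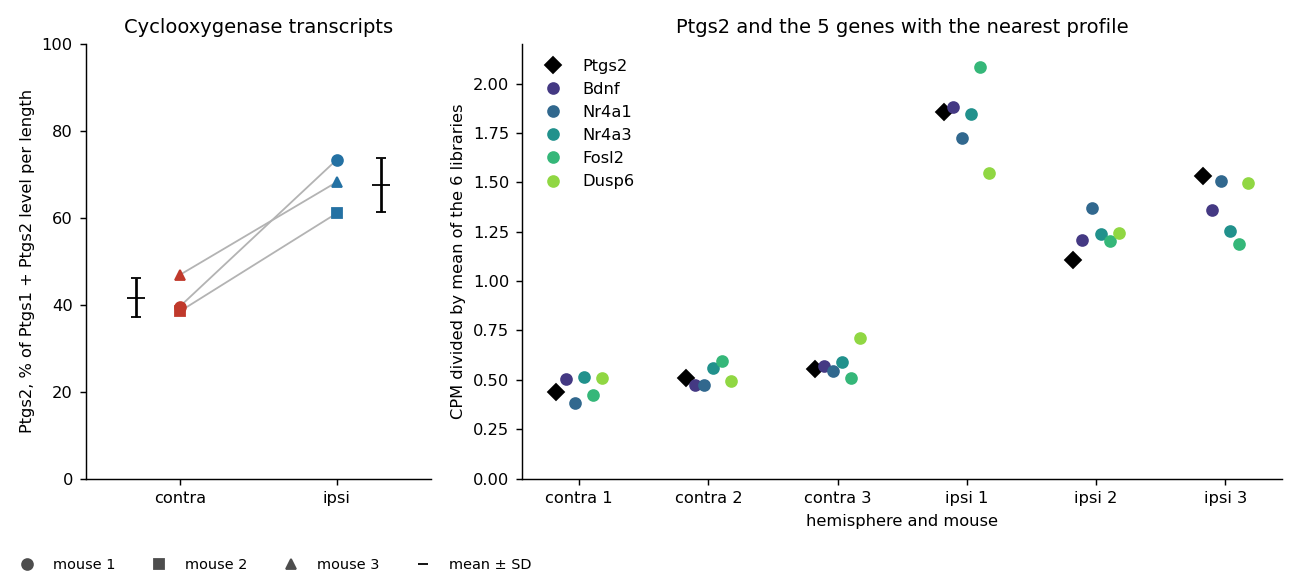
The left panel plots Ptgs2 as a percentage of the summed Ptgs1 and Ptgs2 RPKM in contralateral (red) and ipsilateral (blue) V1, with symbols for mice, grey lines within mice and black bars for mean ± SD; the right panel plots CPM divided by the mean of the 6 libraries for Ptgs2 (diamonds) and 5 other genes (circles), by hemisphere and mouse. Shares are 38.5% to 46.9% in contralateral and 61.1% to 73.4% in ipsilateral V1. All 6 genes lie below their mean in each contralateral library and above it in each ipsilateral one. The 5 other genes were picked for nearness to Ptgs2 over these same 6 libraries, so this pattern follows from the choice.

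The genes whose profile over the 6 libraries was nearest to that of Ptgs2 were Bdnf, Nr4a1, Nr4a3, Fosl2 and Dusp6, by root mean square distance of centred log2 CPM among 17480 genes with a mean of at least 1 CPM. Distances were 0.127 for Bdnf, a neurotrophin gene, 0.159 for Nr4a1 and 0.166 for Nr4a3, nuclear receptor genes, 0.201 for Fosl2, an AP-1 subunit gene, and 0.205 for Dusp6, an ERK phosphatase gene. The median distance over all compared genes was 0.845. These genes were picked by this distance over the same 6 libraries, so their likeness to Ptgs2 follows from the choice. Bdnf had 19.4, 18.3 and 21.8 CPM in contralateral V1 of mice 1 to 3, against 72.3, 46.5 and 52.3 CPM in ipsilateral V1. As for Ptgs2, its highest value was in ipsilateral V1 of mouse 1. The CRE core printed above was also in RefSeq windows of Bdnf, Nr4a1 and Nr4a3, and in none listed for Fosl2 and Dusp6. Bdnf has 7 listed windows and the other 4 genes 1 each, and 23.0% of all 27025 genes with a window held the core in at least 1.

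Ptgs2os, a noncoding gene on the other strand whose RefSeq start lies 157 bases from that of Ptgs2, was far rarer. It had 0.995, 1.39 and 0.462 CPM in contralateral V1 of mice 1 to 3, against 1.30, 1.43 and 2.38 CPM in ipsilateral V1. The hemispheres overlapped, and its log2 fold change of -0.85 (SE 0.42) did not pass edgeR's quasi-likelihood test with Benjamini-Hochberg adjustment (adjusted p = 0.807 without and 0.384 with a mouse block).

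The 4 terminal synthases lay much closer together between hemispheres than Ptgs2, with log2 fold changes of -0.33 to 0.37, and all 4 had overlapping groups. Ptges encodes the inducible microsomal PGE2 synthase that is usually coupled to Ptgs2. It had 3.68, 5.03 and 3.74 CPM in contralateral V1 of mice 1 to 3, against 4.29, 2.79 and 2.62 CPM in ipsilateral V1. Mice 2 and 3 were higher on the contralateral side and mouse 1 lower, with log2 differences of 0.83, 0.50 and -0.22. Means were 4.15 ± 0.764 CPM in contralateral and 3.24 ± 0.921 CPM in ipsilateral V1 (SD, n = 3 each), with a log2 fold change of 0.37 (SE 0.26), opposite in sign to that of Ptgs2. The fold change was 0.21 without contralateral replicate 2, 0.57 without ipsilateral replicate 1, and 0.09 and 0.64 within the libraries low and high in mt-Rnr1. A pseudogene on the same strand, Gm13400, overlaps Ptges, so its reads could be divided.

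Ptges2 encodes a membrane-associated PGE2 synthase. It had 21.2, 13.8 and 14.1 CPM in contralateral V1 of mice 1 to 3, against 26.0, 16.0 and 14.9 CPM in ipsilateral V1. Both hemispheres of mouse 1 stood above those of the other mice, and contralateral V1 was lower than ipsilateral V1 of the same animal in all 3 mice. The log2 differences within mice were -0.29, -0.22 and -0.08, with an SD of 0.11, while the SD of log2 levels among mice was 0.35 in contralateral and 0.43 in ipsilateral V1. The fitted log2 fold change was -0.21 (SE 0.23) without and -0.20 (SE 0.12) with the mouse as a block. In fits without the block it was 0.04 and -0.21 within the libraries low and high in mt-Rnr1. It was likewise -0.45 without contralateral replicate 1 and 0.04 without ipsilateral replicate 1, the 2 libraries of the high mouse.

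Ptges3 encodes p23, a co-chaperone of Hsp90 that also has PGE2 synthase activity. It had 79.4, 66.4 and 86.9 CPM in contralateral V1 of mice 1 to 3, against 86.1, 99.9 and 106 CPM in ipsilateral V1. The highest contralateral library lay just above the lowest ipsilateral one, and contralateral V1 was lower in each mouse, by log2 differences of -0.12, -0.59 and -0.29. Means were 77.6 ± 10.4 CPM in contralateral and 97.4 ± 10.3 CPM in ipsilateral V1 (SD, n = 3 each), with a log2 fold change of -0.33 (SE 0.14). The processed pseudogene Ptges3-ps, on chromosome 6, had 16.3 to 21.5 CPM in contralateral and 21.1 to 24.95 CPM in ipsilateral V1 and a log2 fold change of -0.33. Reads of the near-identical copies could be divided between the entries, so the level of Ptges3 is uncertain.

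Ptgds encodes lipocalin-type prostaglandin D synthase, which makes prostaglandin D2 and also carries lipophilic molecules. It had 104, 157 and 90.7 CPM in contralateral V1 of mice 1 to 3, against 154, 143 and 92.2 CPM in ipsilateral V1. The hemispheres overlapped throughout, and both values of mouse 3 were low. Means were 117 ± 34.9 CPM in contralateral and 130 ± 32.8 CPM in ipsilateral V1 (SD, n = 3 each), with a log2 fold change of -0.15 (SE 0.22). The spread lay among animals more than between sides, with within-mouse log2 differences of -0.56, 0.13 and -0.02.

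Markers of the cell types known to make Ptgds were read beside it. The summed level of 10 leptomeningeal and fibroblast markers was 69.0, 105 and 81.8 CPM in contralateral V1 of mice 1 to 3, against 100.2, 114 and 63.9 CPM in ipsilateral V1. The 3 highest libraries of this sum, contralateral V1 of mouse 2 and ipsilateral V1 of mice 1 and 2, were also the 3 highest of Ptgds. Not every one of the 10 markers had the same 3 highest libraries. The sum of 8 oligodendrocyte markers was 4823, 6142 and 3637 CPM in contralateral V1, against 5109, 6305 and 5286 CPM in ipsilateral V1. Its 3 highest libraries, contralateral V1 of mouse 2 and ipsilateral V1 of mice 2 and 3, were not the same as those of Ptgds. Choroid plexus markers summed to 1.66 to 2.19 CPM in contralateral and 1.07 to 2.37 CPM in ipsilateral V1, 4 of the 6 had 0 reads in at least 1 library, and 1 of the 6 had enough reads to be tested. In edgeR's test 0 genes of these 3 lists passed, with or without the mouse as a block. The part of these cells in the Ptgds level was not tested.

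**Figure D3:**
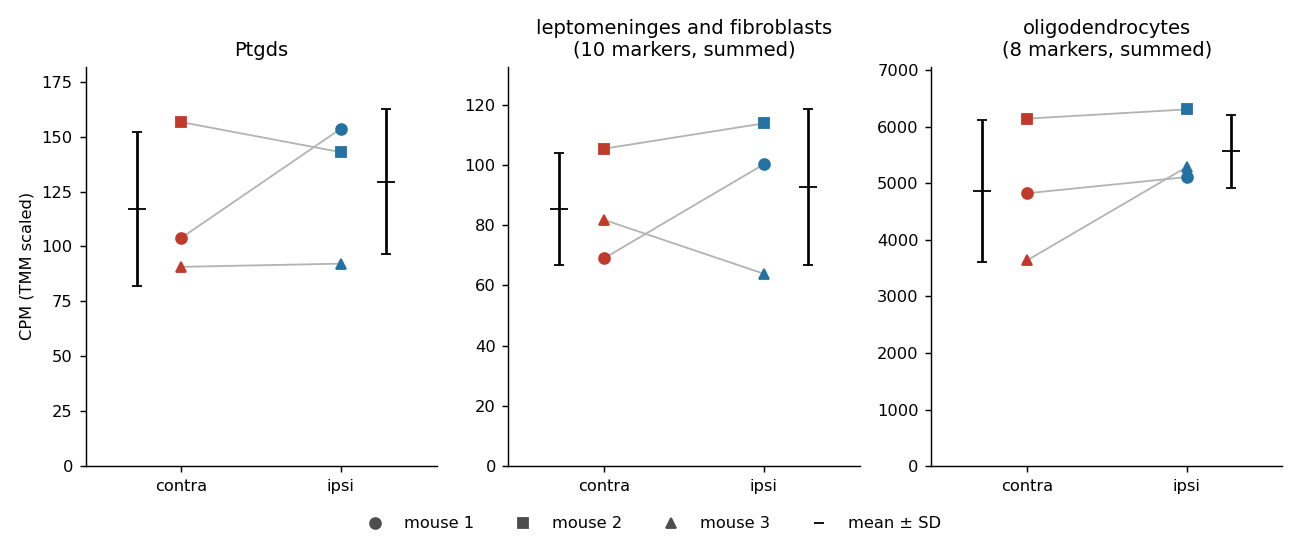
The 3 panels plot, in CPM (TMM scaled), Ptgds, the summed level of 10 leptomeningeal and fibroblast markers and the summed level of 8 oligodendrocyte markers in contralateral (red) and ipsilateral (blue) V1, with symbols for mice, grey lines within mice and black bars for mean ± SD. In the first panel the 3 highest libraries, at 143 to 157 CPM, are contralateral mouse 2 and ipsilateral mice 1 and 2. The same 3 libraries are highest for the leptomeningeal sum. For the oligodendrocyte sum the 3 highest are contralateral mouse 2 and ipsilateral mice 2 and 3.

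The genes nearest in profile to Ptgds were Fcgrt, the neonatal Fc receptor gene, at a distance of 0.087, Ecscr, an endothelial gene, at 0.0954, Lcat, a cholesterol acyltransferase gene, at 0.101, Col6a3, a collagen gene, at 0.105, and Tmem98, a membrane protein gene, at 0.109. The median distance over the 17480 genes was 0.396. Here too the genes were picked by distance over the same libraries, so their likeness to Ptgds follows from the choice. Lcat, for example, had 8.71, 10.6 and 7.11 CPM in contralateral V1 of mice 1 to 3, against 11.2, 10.5 and 7.34 CPM in ipsilateral V1.

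Among the synthases Ptgds and Ptges3 dominated per length. Ptgds made up 63.5% ± 9.11 of the summed RPKM of the 4 genes in contralateral and 61.1% ± 8.06 in ipsilateral V1, and Ptges3 32.6% ± 8.56 in contralateral and 35.3% ± 8.45 in ipsilateral V1 (SD, n = 3 each). These shares overlapped between hemispheres.

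The PGE2 receptor transcripts were rare, and the 3 tested had log2 fold changes of -0.12 to 0.46. Ptger3 encodes EP3, which couples mainly to Gi and lowers cAMP. It had 5.23, 4.87 and 6.37 CPM in contralateral V1 of mice 1 to 3, against 5.39, 7.00 and 5.54 CPM in ipsilateral V1. The hemispheres overlapped and the mice differed in sign, with a log2 fold change of -0.12 (SE 0.21).

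Ptger4 encodes EP4, which couples to Gs and raises cAMP. It had 4.53, 4.07 and 3.832 CPM in contralateral V1 of mice 1 to 3, against 3.00, 3.31 and 3.813 CPM in ipsilateral V1. The groups did not overlap, but the closest libraries, both of mouse 3, were almost equal. Means were 4.14 ± 0.355 CPM in contralateral and 3.37 ± 0.413 CPM in ipsilateral V1 (SD, n = 3 each), with a log2 fold change of 0.30 (SE 0.22) and log2 differences of 0.58, 0.29 and 0.01 within mice. Ptger4 overlaps Ttc33 and the pseudogene Gm15937 on the other strand. Ttc33 was far more abundant, at 29.2 to 40.7 CPM in contralateral and 35.2 to 41.8 CPM in ipsilateral V1, with a log2 fold change of -0.17. The strand setting of the counting is unknown here, so the Ptger4 counts are uncertain.

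Ptger1 encodes EP1, which raises intracellular calcium. It had 2.54, 1.87 and 1.15 CPM in contralateral V1 of mice 1 to 3, against 0.949, 1.49 and 1.56 CPM in ipsilateral V1. The hemispheres overlapped, and the log2 difference was 1.34 in mouse 1, 0.31 in mouse 2 and -0.41 in mouse 3. The fitted log2 fold change was 0.46 (SE 0.35), and was 0.99 and 0.01 within the libraries low and high in mt-Rnr1. It was 0.16 without contralateral replicate 1 and 0.71 without contralateral replicate 3. Its counts are uncertain, since the strand setting of the counting is unknown here.

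Ptger2 encodes EP2, the other Gs-coupled receptor. It had 1, 1 and 0 reads in contralateral V1 of mice 1 to 3, against 4, 3 and 2 reads in ipsilateral V1. In 5 of the 6 libraries it was at or under a floor of 3 reads, which corresponds to 0.138 to 0.161 CPM in contralateral and 0.0972 to 0.150 CPM in ipsilateral libraries, counting error only. Its level could not be compared at this depth.

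Per length, the mean over 6 libraries ran from Ptgds (74.8 ± 18.8 RPKM, SD) and Ptges3 (39.5 ± 6.45) through Ptgs2 (3.73 ± 2.23), Ptges2 (3.49 ± 0.967) and Ptgs1 (2.61 ± 0.242). Then came Ptger3 (1.01 ± 0.140), Ptges (0.940 ± 0.231), Ptger4 (0.565 ± 0.0820), Ptger1 (0.292 ± 0.103) and Ptger2 (0.0218 ± 0.0183). Neighbours in this order did not overlap at 4 places, between Ptgds and Ptges3, Ptges3 and Ptgs2, Ptgs1 and Ptger3, and Ptger1 and Ptger2. Ptgs2 and Ptges2 had no single order over the 6 libraries. Ptges2 was above in all 3 contralateral libraries and Ptgs2 in all 3 ipsilateral ones. The rank of Ptgs2 among the 10 was 5 in contralateral and 3 in ipsilateral V1. Ptges2 was above Ptgs1 in 5 libraries, and Ptger3 above Ptges in 3. Ptges lay above Ptger4, and Ptger4 above Ptger1, in all 6 libraries, although their ranges overlapped.

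**Figure D4:**
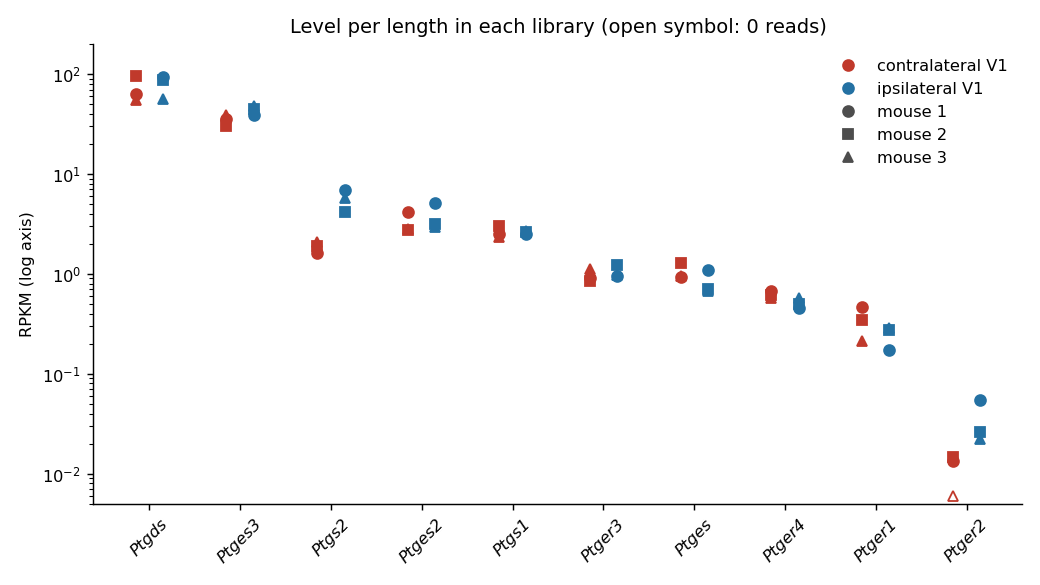
RPKM on a log axis is plotted for the 10 genes, ordered by their mean over 6 libraries, with contralateral V1 in red to the left, ipsilateral V1 in blue to the right, symbols for the 3 mice and an open symbol for a library with 0 reads. Means run from 74.8 RPKM for Ptgds to 0.0218 RPKM for Ptger2, and the red and blue symbols separate widely for Ptgs2 and for Ptger2, which rests on 0 to 4 reads a library.

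Over the 9 tested members, 5 had a log2 fold change below 0 and 4 above, with a median of -0.12, beside a median of 0.03 over all genes tested. The largest absolute log2 fold change among the 8 members other than Ptgs2 was 0.46, and in 5 of these 8 it was smaller than the SD of the differences within mice. The hemispheres did not overlap in 1 of 9 with contralateral V1 lower, Ptgs2, and in 1 of 9 with contralateral V1 higher, Ptger4. Over all genes tested the corresponding shares were 6.29% and 6.70%. With the selection already known for Ptgs2, these counts carry no further reading. In the deposited table of circular RNAs, which lists those with reads in every library, 0 of 1488 entries had a member as host gene.

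Another 46 genes of the pathway, from arachidonate release to prostaglandin breakdown and the lipoxygenase and epoxide branches, were read beside the members. Of these, 41 were tested, 19 had a log2 fold change below 0 and 22 above, and the median was 0.08, beside 0.03 over all genes. In edgeR's quasi-likelihood test with Benjamini-Hochberg adjustment over all genes, 0 of the 41 passed in either direction, against 0.127% of all genes. An unadjusted p under 0.05 was found for 2 of the 41, against 6.15% of all genes tested. With the mouse as a block 0 of the 41 passed and 9 had an unadjusted p under 0.05, against 13.2% of all genes. In DESeq2 0 passed and 1 had an unadjusted p under 0.05, against 5.53% of all genes. The hemispheres did not overlap in 4 of 41 with contralateral V1 lower, against 6.29% of all genes tested. With contralateral V1 higher they did not overlap in 5 of 41, against 6.7% of all genes.

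Of the 15 tested genes of arachidonate release, 8 were below 0 and 7 above. Pla2g4b, a cytosolic phospholipase A2 gene, had 2.04, 1.66 and 1.62 CPM in contralateral V1 of mice 1 to 3, against 1.45, 0.842 and 0.615 CPM in ipsilateral V1. All contralateral libraries were above all ipsilateral ones, on 15 to 41 reads a library. Its log2 fold change was 0.89 (SE 0.36), higher in 3 of 3 mice, and did not pass (edgeR adjusted p = 0.771 without and 0.243 with a mouse block). Pla2g3, a secreted phospholipase A2 gene, averaged 5.59 ± 0.438 CPM in contralateral and 4.08 ± 0.0542 CPM in ipsilateral V1 (SD, n = 3 each, as for the means that follow), without overlap (edgeR adjusted p = 0.796). Pla2g4e, a relative of Pla2g4b, averaged 15.9 ± 0.635 CPM in contralateral and 12.9 ± 2.09 CPM in ipsilateral V1, also without overlap (edgeR adjusted p = 0.826).

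Of the 7 other prostanoid synthases, 3 were below 0 and 4 above, and log2 fold changes lay between -0.22 and 0.30. Hpgds, the haematopoietic prostaglandin D synthase, averaged 17.5 ± 3.80 CPM in contralateral and 14.2 ± 3.00 CPM in ipsilateral V1 (log2 fold change 0.30, edgeR adjusted p = 0.844). Akr1b3, an aldose reductase gene whose product also makes prostaglandin F2α, had a log2 fold change of -0.16 (edgeR adjusted p = 0.874), and Akr1c18, another aldo-keto reductase gene, one of -0.22 (edgeR adjusted p = 0.935). Of the 4 tested receptor genes outside the PGE2 family, Ptgfr, the prostaglandin F receptor, had a log2 fold change of 0.26 (SE 0.32, edgeR adjusted p = 0.909). Ptgfrn, which encodes a negative regulator of that receptor, had one of -0.04 (SE 0.16, edgeR adjusted p = 0.974).

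Among 6 genes of transport and breakdown, 2 were below 0 and 4 above, with a median of 0.29. Abcc4, a transporter gene whose product exports prostaglandins, averaged 20.2 ± 2.93 CPM in contralateral and 16.1 ± 0.212 CPM in ipsilateral V1, without overlap (log2 fold change 0.32, edgeR adjusted p = 0.804). Hpgd, the dehydrogenase that inactivates prostaglandins, averaged 6.67 ± 0.638 CPM in contralateral and 5.02 ± 1.30 CPM in ipsilateral V1, with overlap (log2 fold change 0.40, edgeR adjusted p = 0.826). Ptgr2, a reductase gene of the same route, had a log2 fold change of 0.28 (edgeR adjusted p = 0.826).

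In the lipoxygenase and epoxide branches, 4 of 9 tested genes were below 0 and 5 above. Alox5ap, the activating protein of 5-lipoxygenase, averaged 1.09 ± 0.178 CPM in contralateral and 1.56 ± 0.207 CPM in ipsilateral V1, without overlap (log2 fold change -0.51, edgeR adjusted p = 0.830). Alox8, a lipoxygenase gene, had a log2 fold change of -0.41 without overlap (edgeR adjusted p = 0.859), and Alox12b, one more of that family, one of 0.49 with overlap (edgeR adjusted p = 0.830). Except where a block is named, the adjusted p-values given for single pathway genes are from edgeR's fit without it. With the mouse as a block, those of the named pathway genes ran from 0.243 (Pla2g4b) to 0.861 (Ptgfrn) in edgeR's quasi-likelihood test. These p-values do not show that the levels were equal.

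**Figure D5:**
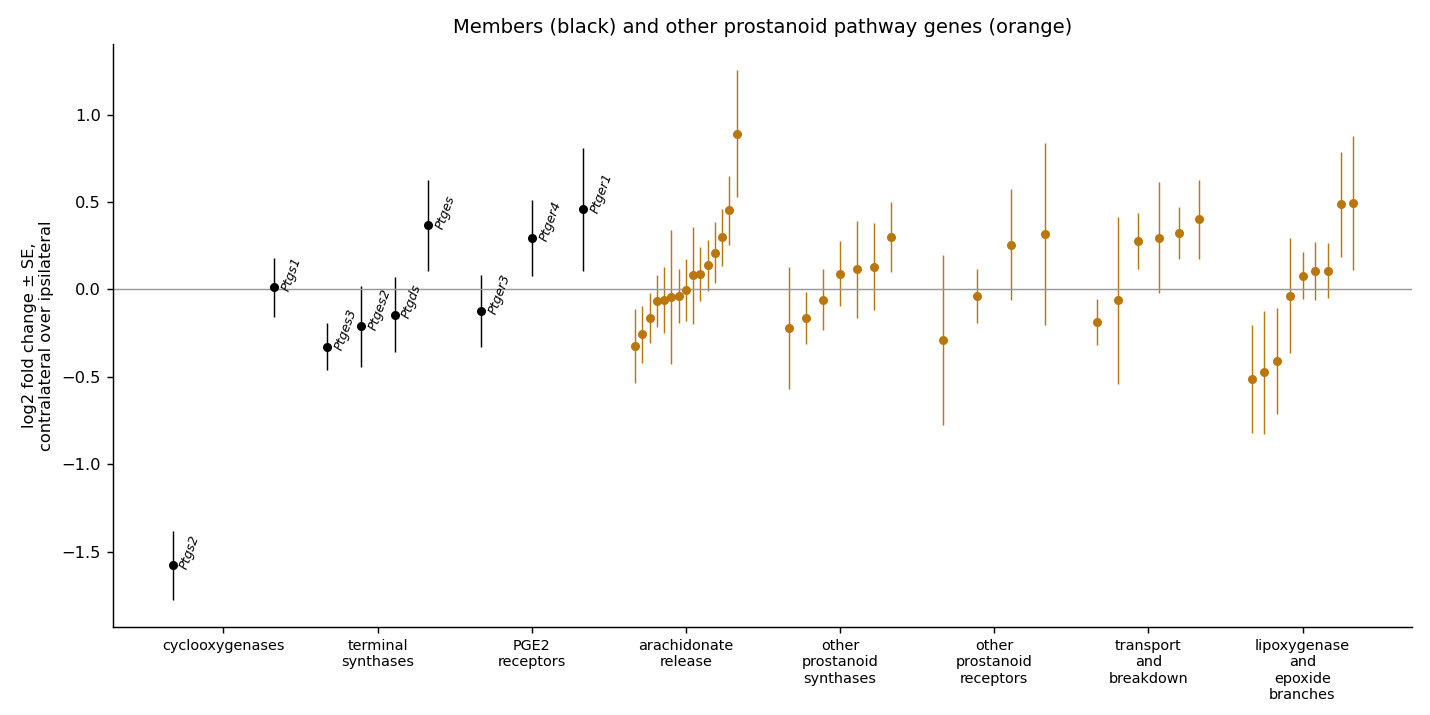
Log2 fold changes of contralateral over ipsilateral V1 are plotted with SE bars for the 9 tested members (black, named) and the 41 tested genes of the wider pathway (orange), grouped by role and ordered by value within a role. Ptgs2 sits at -1.58, and the other 49 genes lie between -0.51 and 0.89.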

How the data were processed

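Total RNA of V1 was made into libraries with a SMARTer Stranded kit (v2), per the labels' protocols. The authors deposited raw read counts per Ensembl gene, with exon length, per the file headers. GRCm38, featureCounts, HISAT2, limma and DESeq2 are listed in the submitters' processing notes. The strand setting, the annotation release and tool versions were not given in the sources used here. Normalized circRNA values were not used. GENCODE M21 named 52403 of 52636 IDs. Of the pathway list, 2 symbols were matched by a RefSeq synonym.

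Tests used edgeR 4.0.16 in R 4.3.3 (quasi-likelihood test, TMM, filterByExpr at minimum count 10 and minimum total 15, Benjamini-Hochberg threshold 0.05), with DESeq2 1.42.0 as an alternative, and figures used Python 3.11.15 with matplotlib 3.10.9. The fit covered 20473 genes and 6 libraries and was tested on simulated data. SE was derived by dividing the size of the log2 fold change by the root of the F statistic, and profiles used a prior count of 2. Floors cover counting error and SE the spread of these libraries.

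The labels pair the libraries by mouse, so a fit with the mouse as a replicate block was set beside the fit without it. Deviations from group means correlated at 0.431, 0.0775 and 0.172 within mice 1, 2 and 3. Between hemispheres of different mice they correlated at -0.295 to 0.177, so only the value within mouse 1 lay above all of these.

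The members and lists were chosen with earlier results of these data known. Named were the 10 members, any pathway gene that passed, the 3 pathway genes per role with the smallest p and a mean CPM of at least 1, and the 5 genes nearest to Ptgs2 and to Ptgds, leaving out predicted ones. Neighbouring and overlapping genes were named after their values were seen. Alternatives were another scaling, another filter, DESeq2, the block, leaving out each library, and each mt-Rnr1 class.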

Additional observations from a re-analysis of the deposited data

How the results depend on the processing

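Over 13 alternatives, the Ptgs2 log2 fold change stayed below 0, between -1.96 and -1.06, with -1.06 within the libraries high in mt-Rnr1. The number of genes that passed over all genes was 26, and became 109 without the filter, 89 in DESeq2, 183 with the mouse as a replicate block in the paired fit, and 0 to 35 with 1 library left out. It was 0 without contralateral replicate 2 (edgeR, 833 at an unadjusted p under 0.05), where Ptgs2, picked from this contrast, also did not pass. In all 13, 0 pathway genes passed. Log2 fold changes ranged from 0.09 to 0.64 for Ptges, 0.01 to 0.99 for Ptger1, 0.18 to 0.40 for Ptger4 and -0.45 to -0.23 for Ptges3. They spanned 0 for Ptges2 (-0.45 to 0.04), Ptgds (-0.41 to 0.005), Ptger3 (-0.31 to 0.005) and Ptgs1 (-0.11 to 0.09). For Ptges2 the values above 0 came from unpaired fits, and the fit with the mouse as a block gave -0.20 (SE 0.12). Within the libraries high in mt-Rnr1 the sign turned for Akr1c18 (0.39) and Ptgfr (-0.17), and within those low in it for Hpgds (-0.028) and Ptgfrn (0.27). With 1 library left out, Akr1c18 ranged from -0.50 to 0.18 and Ptgfrn from -0.22 to 0.09. The cause was not tested. Adjusted p of the named pathway genes ranged from 0.243 to 1.0 over the alternatives. Within an mt-Rnr1 class, 1 hemisphere has a single library, which is assumed to vary like the pair. Depth left Ptger2 uncompared.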
